A study of Mus musculus with 7 samples.

Results

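The genes described here are 8 genes of proximal tubule identity, Kap, Miox, Napsa, Ttc36, Slc34a1, Slc13a1, Slc13a3 and Aqp1, chosen by symbol from the 12958 symbols of the expression tables, which held all 8 of them. RNA was sequenced from isolated glomeruli of 3 knockdown mice and 4 control mice, 1 library per animal as the design text counts them. All were male BALB-C mice, 14 weeks old, and both groups took doxycycline with food and water over 6 weeks, starting at 8 weeks of age. The knockdown animals carried an siRNA transgene against Shroom3, an actin-binding protein of cell junctions, and the controls were littermates without the siRNA sequence. Which promoter and cell type drive the transgene is not given by the sources here. The comparison therefore asks how these tubule transcripts stood in glomerular preparations of knockdown mice, relative to controls.

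The proximal tubule is the first segment of the nephron after the glomerulus, and its cells reclaim most of the filtered phosphate, sulfate, organic acids, sugar, amino acids and water. They do so with sodium-coupled carriers in the brush border and the basolateral membrane, with water channels in both, and with endocytic receptors that take up filtered protein. The glomeruli were pulled out with beads and a magnet and then sieved. Whether fewer cells of a type or less RNA per cell lies behind a lower value cannot be told apart in bulk RNA.

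The deposited values are logarithms whose base is not stated, and base 2 was assumed. Fold values and shares of summed linear values depend on that assumption. Library medians were 9.15 to 9.16. No read counts enter, so depth and counting error are unknown. It is also not stated whether the values are per transcript length. Ranks, shares of summed values and values relative to other genes depend on that scaling. They are given for comparison between libraries, and not as a measure of 1 gene's level against another's. The transcript aimed at by the siRNA did not tell the groups apart: Shroom3 was at 10.80, 10.91 and 10.89 in the libraries labelled knockdown, against 10.94, 10.85, 11.36 and 11.06 in control libraries (difference -0.19 with SE 0.11, Benjamini-Hochberg adjusted p = 0.417 in limma). The groups are named as labelled throughout. Titles start with G in 5 libraries (2 knockdown, 3 control) and with CB6 in the other two (1 knockdown, 1 control), knockdown replicate 3 and control replicate 4. Across genes, the deviations of these 2 libraries from their group means mirrored each other (correlation -0.958 over 12958 genes, which are not independent replicates). Whether the values were adjusted for title style or forced to 1 distribution before deposit is not stated and was not tested. If they were, the standard errors and p-values given here, permutation ones included, would not have their usual meaning. All 10 podocyte markers looked for, which define glomeruli, were measured. Podxl, one of them, was at 16.96 to 17.25 in knockdown and 16.58 to 16.99 in control libraries, the highest value of each library.

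Kap and Slc13a3 were called lower in the glomerular preparations of knockdown mice, and the other 6 genes did not pass the test. Kap was 4.57-fold lower and Slc13a3 1.67-fold lower. The call of Slc13a3 was the less stable, holding in 5 of 14 other settings, with p = 0.0571 by exact permutation. Ttc36, Slc34a1, Slc13a1 and Miox had smaller negative log2 fold changes, Napsa a positive one, and Aqp1 one near 0. In all, 7 of the 8 log2 fold changes were negative, with a median of -0.35, where 43.8% of all genes were negative and the median over all genes was 0.02. The 8 genes were chosen with earlier results of these data known. These counts, and the calls that follow, are therefore no independent evidence of a direction. The 2 members called lower stand beside a share of 2.02% of all genes called lower, 0.996% called higher and 3.02% called in either direction (limma, Benjamini-Hochberg adjusted p under 0.05, n = 12958 genes). At an adjusted p under 0.1, 3 members passed and 6.53% of all genes, and under 0.01, 1 member and 0.957%.

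Promoter sequences are shown for the genes that fell and for Slc34a1, the brush border phosphate carrier, which held most of the matches. RefSeq (GRCm38.p6) gave 300 bases, 250 before to 50 after the start, for 5 of the 8 genes: Kap, Miox, Slc34a1, Slc13a3 and Aqp1. They were searched on both strands for GTTAAT, a core of sites of the HNF1 factors, and for CAAAGTCC, a core of HNF4 sites. TGTTCT, a core of sites of the androgen and glucocorticoid receptors, was searched for in the same way. Capitals mark matches, which in Slc34a1 did not overlap each other. Each sequence is printed in the direction of transcription.
Kap, chr6:133853618-133853917, minus strand: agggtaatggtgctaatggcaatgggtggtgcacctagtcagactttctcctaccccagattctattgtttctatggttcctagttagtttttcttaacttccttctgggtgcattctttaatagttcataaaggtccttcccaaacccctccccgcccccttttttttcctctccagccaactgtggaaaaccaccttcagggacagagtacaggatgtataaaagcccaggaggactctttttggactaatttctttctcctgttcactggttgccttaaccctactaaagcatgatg
Slc13a3, chr2:165473148-165473447, minus strand: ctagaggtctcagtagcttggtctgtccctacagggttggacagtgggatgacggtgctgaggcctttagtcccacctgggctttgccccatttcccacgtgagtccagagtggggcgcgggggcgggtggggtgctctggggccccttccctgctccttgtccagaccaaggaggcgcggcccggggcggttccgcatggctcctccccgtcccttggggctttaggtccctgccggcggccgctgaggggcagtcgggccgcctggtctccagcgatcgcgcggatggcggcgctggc
Slc34a1, chr13:55399398-55399697, plus strand: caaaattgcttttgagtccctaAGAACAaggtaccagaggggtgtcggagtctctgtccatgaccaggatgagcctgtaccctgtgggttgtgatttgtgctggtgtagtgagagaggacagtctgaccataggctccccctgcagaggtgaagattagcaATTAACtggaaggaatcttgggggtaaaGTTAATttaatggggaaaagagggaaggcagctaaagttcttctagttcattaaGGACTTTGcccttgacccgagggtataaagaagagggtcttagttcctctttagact
Neither Kap nor Slc13a3 held any of these letters in this window, and nor did Aqp1. Slc34a1 held 2 HNF1 cores, at positions -89 and -61 counted from the RefSeq start, 1 HNF4 core at -7 and 1 receptor core at -228. Miox held 1 HNF1 core, at -142. The RefSeq start of Slc34a1, at 55399648, lies 1461 bases inside the gene as GENCODE draws it, with its nearest GENCODE transcript beginning at 55399693, so the window is not the one before the outermost start. Of 32851 promoters in the table, 7.10% held the HNF1 letters, 1.42% the HNF4 letters and 19.0% the receptor letters. Such matches are descriptions of letters and not of binding.

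Kap encodes the kidney androgen-regulated protein, a product of mouse proximal tubule cells whose transcript responds to androgens. Kap (ENSMUSG00000032758.4; GRCm38 chromosome 6, 133849851 to 133853762, minus strand) had log2 values of 14.60, 13.41 and 13.78 in the knockdown libraries, against 15.98, 15.98, 15.98 and 16.56 in the control libraries. Every knockdown library lay below every control library, with a gap of 1.37 between the nearest ones. Its fold change was -2.19 in log2 (SE 0.27, 95% CI -2.81 to -1.58; limma, Benjamini-Hochberg adjusted p = 0.00481). By exact permutation, two-sided, p was 0.0286, the smallest that 3 against 4 libraries can give. The knockdown libraries differed from one another by up to 1.19, the widest range of the 8 genes in that group. Kap made up 0.0585% to 0.135% of the summed linear values of a knockdown library and 0.345% to 0.520% of those of a control library.

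The 3 control libraries titled G held the same Kap value to the last deposited digit, and Kap stood at rank 6 among the symbols of each. Its ranks were 37, 178 and 110 in the knockdown libraries and 2 in control replicate 4. Identical values in libraries titled G occurred for 321 of the 12958 symbols, and a value common to all 3 of those controls for 2 of them. The control spread of Kap (SD 0.29, n = 4) thus comes from control replicate 4 alone. Without that library the log2 fold change was -2.05 and still passed (limma, Benjamini-Hochberg adjusted p = 0.0156). Within the libraries titled G the difference was -1.97 and within the CB6 pair -2.78. Without the CB6 pair Kap no longer passed (limma, Benjamini-Hochberg adjusted p = 0.0932), and it passed without any single library.

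**Figure D1:**
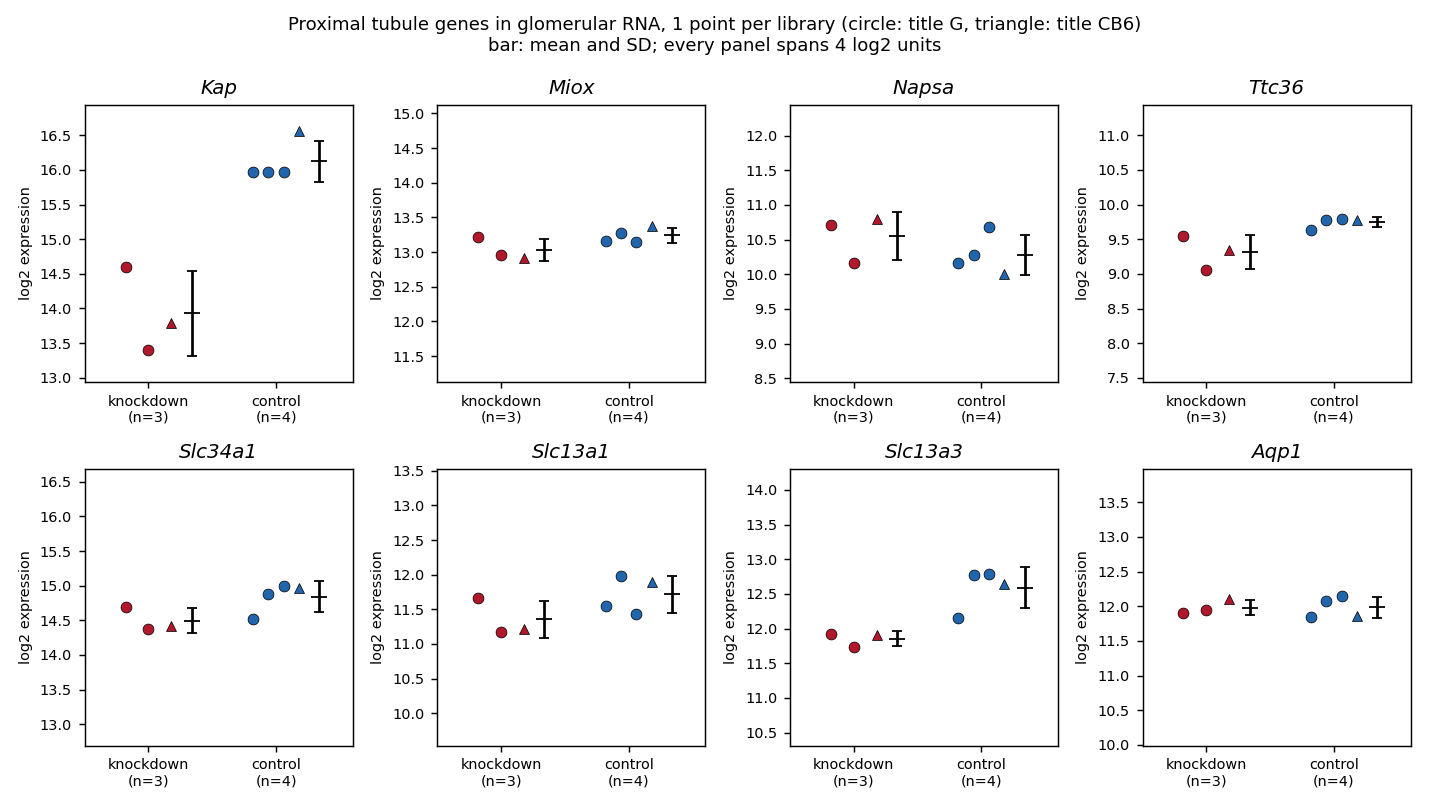
Log2 expression of the 8 genes in each library, knockdown (red, n = 3) left of control (blue, n = 4), circles for titles in G and triangles for CB6, with the mean and SD as a bar; every panel spans 4 log2 units. Kap, Ttc36 and Slc13a3 have knockdown points that all lie below the control points, and the 3 control circles of Kap are identical.

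The enzymes, the repeat protein and the protease of the group did not pass. Miox, the myo-inositol oxygenase that begins the oxidation of inositol in the kidney, was at 13.22, 12.96 and 12.92 in knockdown libraries, against 13.16, 13.28, 13.15 and 13.38 in control libraries. Knockdown replicate 1 lay inside the control range and the other two below it. It differed by -0.21 in log2 (95% CI -0.42 to -0.0039, Benjamini-Hochberg adjusted p = 0.261 by limma, and 0.143 by exact permutation). Ttc36, a protein of tetratricopeptide repeats, was at 9.54, 9.06 and 9.35 in knockdown libraries, against 9.63, 9.78, 9.80 and 9.78 in control libraries. Its groups did not overlap, with a gap of 0.09. Its log2 fold change of -0.43 (SE 0.11, 95% CI -0.68 to -0.18) missed the threshold (limma, Benjamini-Hochberg adjusted p = 0.0808), although the exact permutation p was 0.0286. Groups that did not overlap with knockdown lower were found for 7.55% of all genes, and for 3 of these 8, Kap, Ttc36 and Slc13a3; in either direction the share of all genes was 18.4%.

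Napsa, the aspartic protease napsin A, had the single positive difference among the members. It was at 10.71, 10.16 and 10.80 in knockdown libraries, against 10.17, 10.27, 10.68 and 9.998 in control libraries. Knockdown replicates 1 and 3 lay above all controls and replicate 2 among the lowest controls. It differed by 0.28 in log2 (95% CI -0.15 to 0.71, Benjamini-Hochberg adjusted p = 0.481 by limma, and 0.257 by exact permutation). The difference was 0.06 within the libraries titled G and 0.80 within the CB6 pair. RefSeq lists KAP among the synonyms of Napsa, but the tables hold Kap and Napsa as separate symbols, with differences of opposite sign.

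Among the sodium-coupled carriers, the dicarboxylate carrier fell. Slc13a3, which takes dicarboxylates such as succinate and alpha-ketoglutarate into tubule cells across the basolateral membrane, was at 11.92, 11.73 and 11.90 in knockdown libraries, against 12.16, 12.78, 12.79 and 12.64 in control libraries. All knockdown libraries lay below all controls, and control replicate 1 was the nearest to them, at a gap of 0.24. Slc13a3 (ENSMUSG00000018459.15; chromosome 2, 165405028 to 165473230, minus strand) had a log2 fold change of -0.74 (SE 0.15, 95% CI -1.07 to -0.41, Benjamini-Hochberg adjusted p = 0.0355 by limma, and 0.0571 by exact permutation). The difference was -0.75 within the libraries titled G and -0.74 within the CB6 pair. The call ended on leaving out any one of 6 of the 7 libraries (limma, Benjamini-Hochberg adjusted p from 0.0571 to 0.151). It held without control replicate 1 (limma, adjusted p = 0.00384). The log2 fold change stayed between -0.88 and -0.67 with a library left out, and such fits have fewer libraries to test with. The call also ended in limma under a title style covariate (adjusted p = 0.0707) and without the CB6 pair (adjusted p = 0.287). Under the covariate the log2 fold change was -0.75, with an SE of 0.154 against 0.147 without it.

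Slc34a1 carries filtered phosphate across the brush border and is the main target of parathyroid hormone in this segment. It was at 14.70, 14.37 and 14.42 in knockdown libraries, against 14.52, 14.87, 15.00 and 14.97 in control libraries. Control replicate 1 lay inside the knockdown range. Its fold change was -0.35 in log2 (SE 0.13, 95% CI -0.65 to -0.04, Benjamini-Hochberg adjusted p = 0.214 by limma, and 0.0857 by exact permutation). Slc34a1 (chromosome 13, 55398187 to 55415592, plus strand) overlaps Pfn3 on the opposite strand at 55414688 to 55415232, and no source used here gives whether strand was used in counting, so reads there could belong to either. Annotated antisense transcripts that are not in the tables used here also overlap Ttc36 (Gm48702, 44799397 to 44802838), Napsa (Gm15396, 44579968 to 44586862) and Slc13a3 (Gm14437, 165442264 to 165450485), with the same limit. Pfn3 differed by -0.58 and did not pass (limma, Benjamini-Hochberg adjusted p = 0.139). Slc13a1, the brush border sulfate carrier, was at 11.67, 11.18 and 11.22 in knockdown libraries, against 11.55, 11.98, 11.43 and 11.89 in control libraries. Its groups overlapped through knockdown replicate 1. It differed by -0.36 in log2 (95% CI -0.73 to 0.01, Benjamini-Hochberg adjusted p = 0.283 by limma, and 0.171 by exact permutation).

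Aqp1, the water channel of the proximal tubule, which is also made in thin descending limbs, vasa recta and red cells, was at 11.90, 11.94 and 12.10 in knockdown libraries, against 11.85, 12.08, 12.14 and 11.86 in control libraries. The groups lay within each other. Its fold change was -0.0020 in log2 (SE 0.09, 95% CI -0.21 to 0.20), an interval that holds changes between 0.866-fold and 1.15-fold (limma, Benjamini-Hochberg adjusted p = 0.994). Its sign turned to 0.02 under quantile normalization. The difference was -0.10 within the libraries titled G and 0.24 within the CB6 pair.

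**Figure D2:**
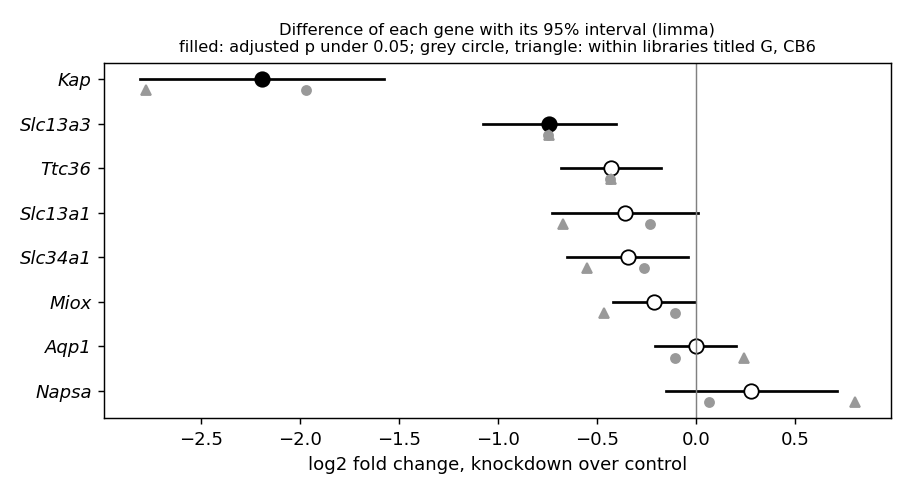
Log2 fold change of knockdown over control for the 8 genes (circles) with the 95% interval of limma, filled where the adjusted p is under 0.05, and the differences within libraries titled G (grey circles) and CB6 (grey triangles). Kap (-2.19) and Slc13a3 (-0.74) are filled, and the intervals of Slc13a1, Aqp1 and Napsa include 0.

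Most of the genes had the same knockdown library as their lowest. Knockdown replicate 2 was the lowest of its group for 6 of the 8 genes and knockdown replicate 1 the highest for 6. Control replicate 1 was the lowest control for 4. Control replicate 3 was the highest for 5 and the lowest for 2. The mean of 31 other proximal tubule genes, the transporters and enzymes listed below for the early and late segments, had the same highest and lowest knockdown library and the same lowest control, but its highest control was replicate 2. It was at 10.98, 10.62 and 10.77 in knockdown libraries, against 10.91, 11.22, 11.02 and 11.12 in control libraries, so that knockdown replicate 1 lay above control replicate 1. It averaged 10.79 ± 0.18 over the 3 knockdown libraries and 11.07 ± 0.13 over the 4 controls (SD), a difference of -0.28.

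Set against that mean in the same library, Kap and Slc13a3 still had knockdown values below all control values, although 4 of the 31 genes, Slc7a13, Slc22a6, Ass1 and Slc4a4, fell by more than Slc13a3. Relative to it, Kap was 3.62, 2.79 and 3.01 higher in knockdown libraries, against 5.06, 4.75, 4.96 and 5.44 in control libraries, a difference of -1.91 with no overlap. Slc13a3 was 0.94, 1.11 and 1.13 higher in knockdown libraries, against 1.25, 1.55, 1.77 and 1.52 in control libraries, a difference of -0.46 with no overlap. The other 6 genes overlapped between groups on this relative scale, with differences from -0.15 for Ttc36 to 0.56 for Napsa. Slc34a1 differed by -0.07, Slc13a1 by -0.08, Miox by 0.07 and Aqp1 by 0.28. The spread of Slc34a1 among knockdown libraries was 0.06 (SD, n = 3) on the relative scale, against 0.18 in its deposited values.

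**Figure D3:**
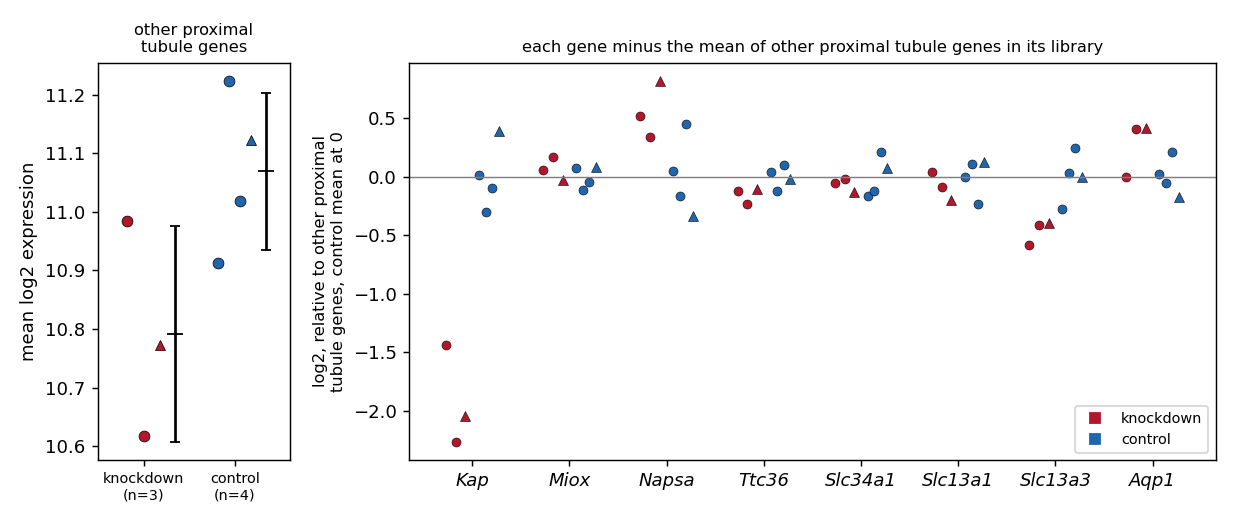
Left, the mean log2 expression of 31 other proximal tubule genes in each library (knockdown red, control blue, bar for mean and SD). Right, each of the 8 genes minus that mean in its library, with the control mean at 0; Kap and Slc13a3 have no overlap between groups, and the other 6 genes do.

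The likeness of profiles was measured as the root mean square difference over the 7 libraries, after each gene's control mean was set to 0. Among the members, Ttc36 and Slc34a1 were the closest pair, at 0.13, and Kap and Napsa the farthest, at 1.67. In all genes, the nearest to Kap were Col6a6 (0.16) and Gm6300 (0.18), and those to Slc13a3 were Gjb1 (0.10) and Odc1 (0.12). Since they were picked for profiles like those of genes that fell, their own log2 fold changes follow from the choice: -2.13 for Col6a6, -2.29 for Gm6300, -0.81 for Gjb1 and -0.84 for Odc1. The nearest to Ttc36 were Igfbp4 (0.05) and Ptchd4 (0.06), to Slc34a1 Tnni3k (0.07) and Gmpr (0.07), and to Slc13a1 Gcnt1 (0.05). Those to Napsa were Cry1 (0.08) and Vsig10l (0.09), to Miox Txn1 (0.04) and Stmn1 (0.05), and to Aqp1 Zfp827 (0.03). How many genes lay within 0.2 of a member differed widely: 2 for Kap and 46 for Slc13a3, but 3567 for Miox and 7016 for Aqp1, whose profiles were nearly flat.

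Kap stood beside other genes known to respond to androgens in mouse kidney. Of 7 such genes measured, 6 fell and none rose, with a median log2 fold change of -1.02. The log2 fold change was -4.15 for the organic anion transporter Slco1a1, -3.26 and -1.06 for the cytochromes Cyp2e1 and Cyp4b1, and -0.96 for the lysosomal beta-glucuronidase Gusb (limma, with Benjamini-Hochberg adjusted p of 0.000845, 7.66e-05, 0.00449 and 0.00771). Gusb was at 9.45, 9.07 and 9.46 in knockdown libraries, against 10.14, 10.15, 10.57 and 10.29 in control libraries, so that the groups did not overlap. Odc1, the rate-limiting enzyme of polyamine synthesis, was at 11.62, 11.43 and 11.77 in knockdown libraries, against 12.20, 12.55, 12.64 and 12.40 in control libraries. Acsm3, a medium-chain acyl-CoA synthetase named after its values were seen, fell by 1.02 (limma, Benjamini-Hochberg adjusted p = 0.0204). The list was drawn up with the falls of Slco1a1, Cyp2e1 and Cyp4b1 in these data known, so its count is no independent evidence of a direction. All animals were male, and hormone levels were not analysed here.

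**Figure D4:**
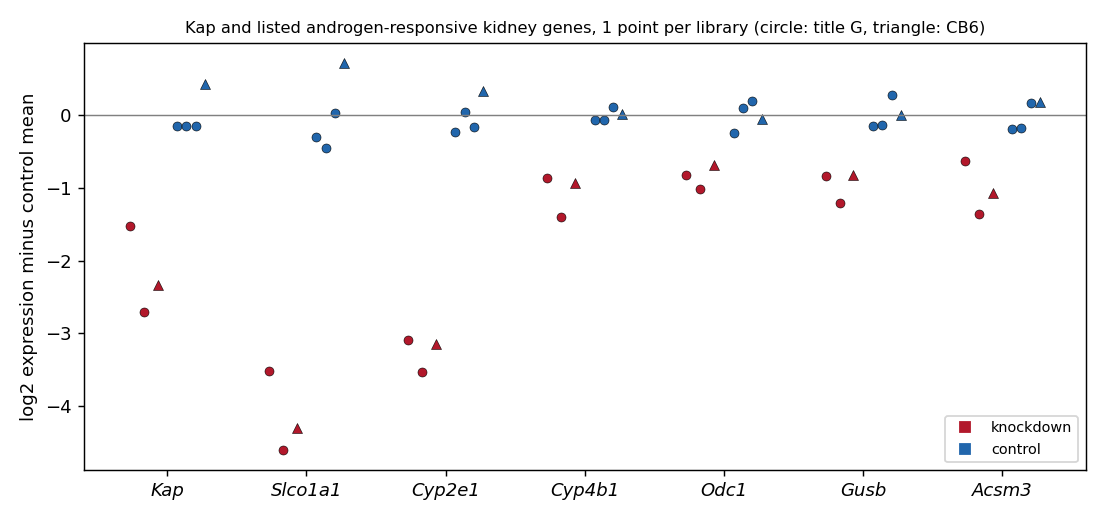
Log2 expression minus the control mean for Kap and the 6 of 7 listed androgen-responsive genes that fell, 1 point per library, knockdown (red) left of control (blue), circles for titles in G and triangles for CB6. The genes shown were picked for having fallen, and their knockdown points lie below their control points.

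Most other transporters and enzymes of the proximal tubule had negative log2 fold changes, and some had positive ones. Of 17 early segment genes, 4 fell and none rose, with 15 negative and a median of -0.27. Slc22a6, the basolateral organic anion exchanger that uses dicarboxylate taken up by Slc13a3, fell by 1.17, Ass1 of arginine synthesis by 0.87, the bicarbonate carrier Slc4a4 by 0.80 and the glucose carrier Slc5a2 by 0.44 (limma, Benjamini-Hochberg adjusted p of 0.00993, 0.00672, 0.0399 and 0.0487). With title style as a covariate, Slc4a4 (adjusted p = 0.0783) and Slc5a2 (adjusted p = 0.1004) no longer passed in limma, which leaves 2 of the 17. Their log2 fold changes hardly moved under that covariate, at -0.81 and -0.44. The SE of Slc4a4 was 0.172 with the covariate and 0.163 without it, and that of Slc5a2 0.103 and 0.094. Slc22a6 was at 11.98, 11.52 and 11.45 in knockdown libraries, against 12.52, 12.88, 12.71 and 13.17 in control libraries. Of 14 late segment genes 9 were negative, with a list median of -0.17. Of these 14, Slc7a13, an amino acid carrier of the last segment, fell by 1.66, and the glucose carrier Slc5a1 rose by 0.69. Slc5a1 was at 10.68, 10.65 and 10.50 in knockdown libraries, against 9.74, 10.15, 9.87 and 9.92 in control libraries, so not every tubule transporter went the way of Kap. None of 6 endocytic receptor genes passed (median -0.24), with Lrp2, the receptor megalin, at -0.21 and its adaptor Dab2 at 0.15. Among 6 measured transcription factors of the segment, Maf rose by 1.06 and the median was -0.07.

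The genes around each member's own transport or reaction gave fewer calls. None of 12 phosphate genes passed, with a median of -0.11 and log2 fold changes from -1.56 to 0.11. Kl, the co-receptor of FGF23, differed by -0.09 and Pdzk1, a scaffold that binds Slc34a1, by -0.28. None of 11 genes of inositol oxidation passed (median -0.10), with the inositol carrier Slc5a3 at 0.24 and Sord, sorbitol dehydrogenase, at -0.19. Of 9 sulfate genes, the basolateral sulfate exchanger Slc26a1 fell by 0.56 and Papss2, which makes the sulfate donor for sulfation, rose by 0.63 (limma, Benjamini-Hochberg adjusted p of 0.0269 and 0.0454). The groups did not overlap for either. Neither call held once title style was a covariate, although the log2 fold changes were then -0.56 and 0.63. None of 7 genes of dicarboxylate and citrate use passed, with Acly, which makes acetyl-CoA from citrate, at 0.20. Of 6 other aquaporins, Aqp6 of intercalated cells rose by 1.12 (limma, Benjamini-Hochberg adjusted p = 0.0321), at 8.40, 8.72 and 9.02 in knockdown libraries, against 7.60, 7.69, 7.99 and 7.13 in control libraries. That call ended once title style was a covariate, with a log2 fold change of 1.13. None of 10 aspartic and lysosomal proteases passed, with Ctsb at -0.09 and Ctsd at 0.0080, the sign of Ctsd turning under quantile normalization. Over these 11 lists, which were drawn up with results of these data known, 12 of 105 measured genes fell and 4 rose, or 15.2%. The share of all genes called in either direction was 3.02%. Of the 12 that fell, 6 came from the androgen-responsive list, so the pooled share does not describe the lists evenly.

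Markers of other cells in the preparation are given beside these values, as measured in the same libraries. Negative log2 fold changes numbered 8 of 10 in podocyte, 9 of 9 in endothelial and 5 of 7 in mesangial markers. In thick limb and distal nephron markers they numbered 3 of 9, and 43.8% of all genes were negative. Of 10 podocyte markers 1 fell, the scaffold Magi2 (-0.70), with a median of -0.24. Podxl differed by 0.19, and the list's share of summed linear values was 1.29% to 1.54% in knockdown and 1.16% to 1.55% in control libraries. None of 9 endothelial markers passed (median -0.23; share 0.477% to 0.602% in knockdown and 0.526% to 0.747% in control libraries), with Plat at -0.09 and Ehd3 at -0.23. Of 7 mesangial markers Sfrp2 (-0.98) and Serpine2 (-0.39) fell, Pdgfrb differed by -0.10 and the median was -0.10. Neither call held under a title style covariate (limma, Benjamini-Hochberg adjusted p of 0.0644 and 0.0967), with log2 fold changes of -0.99 and -0.39. Nor did that of Atp6v1g3 (0.57, adjusted p = 0.0870) or Alas2 (-0.55, adjusted p = 0.124), both given below. The mesangial share was 0.0838% to 0.0976% in knockdown and 0.0874% to 0.121% in control libraries. Of 9 markers of the thick limb and distal nephron Slc4a1 (0.86) and Atp6v1g3 (0.56) rose and none fell, with Umod at -0.15 and Slc12a1 at 0.20. The median was 0.20, and the share 0.528% to 0.629% in knockdown and 0.471% to 0.618% in control libraries.

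The early segment list held 0.479% to 0.611% of the summed values in knockdown and 0.586% to 0.776% in control libraries, and the late segment list 0.0875% to 0.123% in knockdown and 0.114% to 0.137% in control libraries. The thin limb, which also makes Aqp1, had 3 of 5 markers measured and none passed, with Epha7 at -0.19 and Slc14a2 at 0.67. Of the red cell markers only Alas2 was measured, which fell by 0.54. None of 4 immune markers passed (median -0.09), with Ptprc at -0.26 and Csf1r at 0.0034, which turned to -0.0026 under median scaling. No measured marker was listed at 0. The part of cell content in the differences of the 8 genes was not tested.

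**Figure D5:**
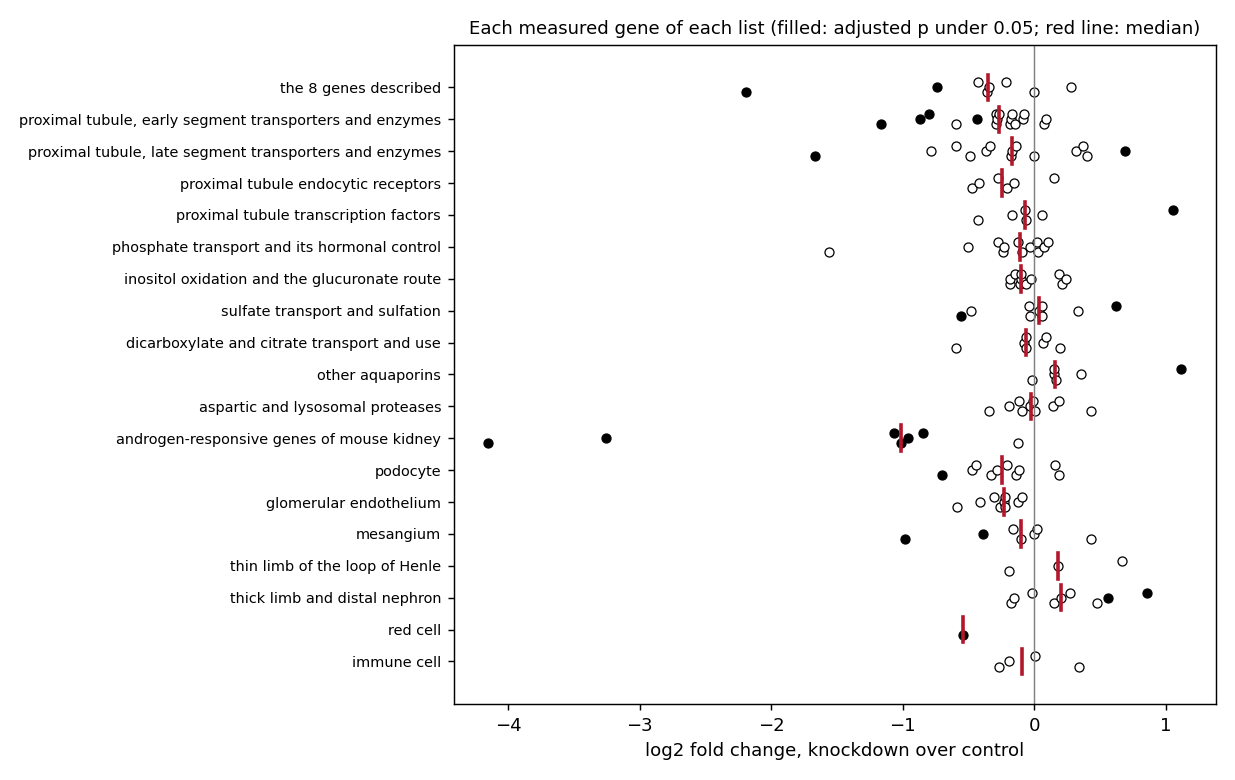
Log2 fold change, knockdown over control, of every measured gene of each list, filled where the adjusted p is under 0.05, with the list median as a red line. The androgen-responsive list has 6 of 7 genes filled on the negative side, with a median of -1.02, and the early segment list 4 of 17.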

How the data were processed

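Glomerular RNA of 7 mice was sequenced after poly-A selection, 1 library per animal, per the labels' protocols. BWA and mm10 are named in the submitters' processing notes. How reads were counted, whether by strand, how values were normalized and the base of the logarithm are not stated in the sources used here. Log2 values, 1 table a library, are what the authors deposited, with base 2 assumed. Another base would leave the tests as they are and change the fold values.

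The groups were fitted in limma 3.58.1 (R 4.3.3; intensity trend; no covariate) over all 12958 symbols at once, with p-values adjusted after Benjamini-Hochberg and called under 0.05. The low-value filter (above the lowest value of the 7 tables in at least 3 libraries) took out 0 genes. Exact permutation tests used the size of the difference in means, two-sided, over 35 possible divisions of the libraries, and were not adjusted for the 8 genes. Coordinates are those of GENCODE M21 (GRCm38), which held 12701 of the symbols. A share of summed linear values is relative to all symbols of a library.

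The members and lists were chosen with earlier results of these data known. Genes named are the members, Shroom3, up to 4 genes past the threshold in each pathway list (else the 2 highest), the 2 highest and any called marker of each cell type, and the 2 genes most like each member. A few genes falling under the rule are left out of the text. The settings varied were normalization (quantile, median), the filter (none, genes above the median), the trend, title style, the CB6 pair, single libraries, and thresholds of 0.01 and 0.1.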

Additional observations from a re-analysis of the deposited data

Results flagged for a closer look

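The controls of 55 genes were looked at for a library far from the other 3, by its gap as a share of the range (Dixon's test at the 95% level, which chance passes in about 1 group in 20), and 3 were found. For Kap the share was 1, because control replicate 4 was at 16.56 and the other 3 controls at the identical value of 15.98. For Ttc36 it was 0.870, with control replicate 1 at 9.63 and the others between 9.78 and 9.80. For Podxl, a podocyte marker, it was 0.927, with control replicate 2 at 16.58 and the others between 16.96 and 16.99. Podxl held the highest value of each library, so these values are also the library maxima. Quantile normalization sets such maxima equal, and the log2 fold change of Podxl was then 2.1e-15. The flag therefore does not tell a difference in Podxl from a difference in the top of the scale.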

How the results depend on the processing

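Kap ran from -2.53 to -1.93 with a library left out and passed in 13 of 14 other settings, the exception being without the CB6 pair (-1.97; limma, Benjamini-Hochberg adjusted p = 0.0932; range of adjusted p over the settings 0.0027 to 0.0932). Slc13a3 ran from -0.88 to -0.67 with a library left out and was past the threshold in 5 of 14 settings (adjusted p from 0.00384 to 0.287); it was not without a trend (-0.74), with title style (-0.75) or without the CB6 pair (-0.75). Miox, Napsa, Ttc36, Slc34a1 and Slc13a1 kept their sign and stayed above the threshold in all 14 settings, the smallest adjusted p being 0.0526 for Ttc36. Aqp1 turned to 0.0169 under quantile normalization and ran from -0.0628 to 0.0513 with a library left out.

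Members called lower numbered 1 without a trend, 1 with title style, 1 at a threshold of 0.01 and 0 without the CB6 pair, and 1 to 2 with a library left out. Over all genes, 147 lower and 44 higher passed with title style, 26 and 14 without the CB6 pair, 96 and 28 at a threshold of 0.01 and 498 and 348 at 0.1; with a library left out the counts ran from 103 to 317 lower and 31 to 163 higher. In the pathway lists, 2 genes were lower without the CB6 pair and 7 at 0.01 (7 to 15 with a library left out), and higher genes numbered 2 with title style, 0 without the CB6 pair and 2 at 0.01 (1 to 5). Of 25 other named genes past the threshold, 15 remained with title style and 2 without the CB6 pair, and none reversed. Ctsd turned to -0.0085 under quantile normalization and -0.0762 without the CB6 pair, and ran from -0.0816 to 0.0724 with a library left out. Csf1r turned to -0.0026 under median scaling and -0.0211 without the CB6 pair, and ran from -0.0356 to 0.0307. Plat ran from -0.219 to 0.0812 and Pdgfrb from -0.197 to 0.0270, both positive without knockdown replicate 1. The causes were not tested, apart from the fewer libraries of the settings that leave some out. Neither scaling moved the median of all genes by more than 0.0060. No paired analysis was possible because the labels give no number to both a knockdown and a control library, the replicate numbers used here being in deposit order. Depth is unknown, so its limit on these values cannot be given.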
